A study of Homo sapiens with 9 samples.

Results

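The annexins described here are the 9 genes of the family ANXA1, ANXA2, ANXA3, ANXA4, ANXA5, ANXA6, ANXA7, ANXA9 and ANXA11. They were found by symbol among the 59648 genes of each deposited count file, and all 9 had counts high enough to be tested. RNA sequencing was done on Kasumi-1 cells, a line grown from a human acute myeloid leukaemia whose t(8;21) translocation makes the fusion protein AML1-ETO (AE, also RUNX1-RUNX1T1). The 9 libraries form 3 groups of 3. The AE knockdown libraries, numbered 1, 2 and 3, carried shRNA against AE. The LYL1 knockdown libraries carried shRNA against LYL1, with the labels 538, 540 and 542 read here as different shRNAs. The control libraries carried a control shRNA. LYL1 is a basic helix-loop-helix protein that partners AML1-ETO in a complex on DNA. In all 3 groups the shRNA came by lentivirus (48 h) and was followed by selection with 1 µg/mL puromycin (48 h), with RNA taken on day 4. The controls therefore share the infection and the selection. All groups are 1 cell line, so they hold no second t(8;21) background. Whether the AE numbers are different shRNAs, and whether libraries of a group are separate cultures, is not in the labels. The p-values therefore speak only of the spread among these 9 libraries. That spread may be technical, and in the LYL1 group it would also hold differences between shRNAs, with 1 library for each.

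Annexins are cytosolic proteins that bind acidic phospholipids of membranes when calcium rises. They share a core of repeated domains and differ in their N-terminal tails, through which several bind a partner of the S100 family. ANXA1 is best known in myeloid cells, where it is abundant in mature neutrophils and monocytes, is induced by glucocorticoids and dampens inflammation through formyl peptide receptors. ANXA2 works with S100A10 at the cell surface, where the pair binds plasminogen. ANXA5 binds phosphatidylserine, which makes it the usual stain for dying cells.

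The targets were read first, and both kept residual expression. RUNX1T1, the gene of the ETO part of the fusion, stood at 52.6%, 63.0% and 40.5% of the control mean in AE knockdown replicates 1, 2 and 3 (log2 -0.94, edgeR adjusted p = 0.00778). RUNX1, the gene of the other part, also fell, to 224 ± 22.3 CPM in AE knockdown from 380 ± 11.8 CPM in controls (SD, n = 3 each). Its log2 fold change was -0.76 (edgeR adjusted p = 0.0119), called in 7 of 9 fits with 1 library left out. LYL1 stood at 49.5%, 60.5% and 27.0% in LYL1 knockdown libraries 538, 540 and 542 (log2 -1.13), below all controls, but did not pass the test (adjusted p = 0.527). LYL1 was called in 1 of 8 alternatives, DESeq2 (0.0217, with the others up to 0.618), and in 0 of 9 fits with 1 library left out (0.216 to 1). Library totals ran from 20103275 to 28039518 counts. Replicate 3 of the AE knockdown stood apart. The first principal component took 56.5% of the variance, and on it this library lay at 102, the other AE libraries at 46.1 and 29.7, the LYL1 libraries between -37.6 and -23.2 and the controls between -31.2 and -30.1. Mitochondrial rRNA took 1.21% of its counts, against 0.483% to 0.791% in the other libraries. The spread between libraries, as a biological coefficient of variation, was 31.5% in the AE, 20.9% in the LYL1 and 7.57% in the control group. Counts of the myeloid identity genes KIT, CD34, CD33, PTPRC, CD38 and MPO were detected in every library, with a summed level of 17669 to 34098 CPM in AE knockdown, 12623 to 17428 CPM in LYL1 knockdown and 18795 to 21760 CPM in control libraries. MPO carried most of this sum, with means of 26426, 13855 and 19486 CPM in AE knockdown, LYL1 knockdown and control libraries. Of the 6 genes 2 were called higher and 0 lower under AE knockdown, where 11.4% of all genes were called higher. KIT and CD34 in AE libraries lay on both sides of the controls. CPM is a gene's count for every 1e+06 counts of a library's scaled total.

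Promoter windows are shown for 4 annexins that changed under AE knockdown, among them ANXA1 with the largest change and 3 whose window holds the letters that RUNX1, which gives the fusion its DNA-binding domain, prefers. They come from RefSeq (GRCh38.p14) and run from 250 bases before to 50 bases after an annotated start, with position 1 the first transcribed base. Capitals mark the RUNX letters TGTGGT or TGCGGT and the E-box letters CANNTG, each on either strand. E-boxes are the kind of site that LYL1 and its partners bind. The windows are ANXA1 at chr9:73151615-73151914 (plus strand), ANXA3 at chr4:78551520-78551819 (plus), ANXA5 at chr4:121696931-121697230 (minus) and ANXA6 at chr5:151157730-151158029 (minus).
ANXA1: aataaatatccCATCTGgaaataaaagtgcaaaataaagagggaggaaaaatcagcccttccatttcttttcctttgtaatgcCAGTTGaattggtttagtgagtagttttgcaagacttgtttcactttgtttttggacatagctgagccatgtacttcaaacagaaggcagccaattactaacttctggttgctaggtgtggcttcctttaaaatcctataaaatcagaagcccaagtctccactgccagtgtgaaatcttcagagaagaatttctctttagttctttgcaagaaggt
ANXA3: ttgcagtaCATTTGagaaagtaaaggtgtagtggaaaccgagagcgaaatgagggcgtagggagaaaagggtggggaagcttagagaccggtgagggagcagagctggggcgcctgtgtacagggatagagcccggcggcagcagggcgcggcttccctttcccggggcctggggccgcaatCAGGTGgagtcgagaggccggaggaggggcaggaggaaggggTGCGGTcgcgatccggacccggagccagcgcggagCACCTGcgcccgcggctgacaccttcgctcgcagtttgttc
ANXA5: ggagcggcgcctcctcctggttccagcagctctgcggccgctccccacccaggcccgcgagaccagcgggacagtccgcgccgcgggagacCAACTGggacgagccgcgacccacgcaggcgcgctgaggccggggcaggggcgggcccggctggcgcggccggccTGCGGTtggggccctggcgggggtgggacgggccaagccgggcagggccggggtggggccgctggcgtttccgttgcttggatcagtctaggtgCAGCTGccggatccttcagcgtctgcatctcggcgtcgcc
ANXA6: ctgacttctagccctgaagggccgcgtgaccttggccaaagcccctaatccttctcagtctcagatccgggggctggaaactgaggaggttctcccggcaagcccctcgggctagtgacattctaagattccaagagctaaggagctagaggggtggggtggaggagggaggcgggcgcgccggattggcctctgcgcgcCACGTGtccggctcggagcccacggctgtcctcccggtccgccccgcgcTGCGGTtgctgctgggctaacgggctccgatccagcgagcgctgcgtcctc
The 9 members have 13 such windows. RUNX letters are in 5 of the 13, and in 19.6% of all 35116 RefSeq windows. In the windows shown they lie at position -26 of ANXA3, -84 of ANXA5 and -1 of ANXA6. The other ANXA6 window holds none, and the 2 further matches are in windows of ANXA11, which are not shown. E-box letters are in 11 of 13 member windows and in 68.7% of all. The ETS letters CCGGAA are in 3 of 13 and in 17.2% of all. The ANXA1 window holds E-box letters at -239 and -167 and no RUNX letters. Its GC content is 37.67%, below the median of all windows (58.7%). A match of letters is a description of the window, and these libraries hold no measurement of binding.

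Under AE knockdown 6 annexins rose and 1 fell against control. The rises were those of ANXA1, ANXA3, ANXA4, ANXA5, ANXA7 and ANXA11, and the fall that of ANXA6. ANXA2 and ANXA9 did not pass the test. By edgeR's quasi-likelihood test with Benjamini-Hochberg adjustment, 7 of 9 members were called at an adjusted p below 0.05, where 21.8% of all genes tested were called, 11.4% higher and 10.4% lower. The median log2 fold change of the 9 was 0.77, beside 0.05 over all genes. In 7 members, 6 higher and 1 lower, the 3 AE libraries did not overlap the 3 controls, as in 45.2% of all genes (23.1% higher and 22.2% lower). ANXA1 passed the low-count filter only through knockdown libraries, so it had to differ, and without it 6 of 8 were called. The median and the 7 members without overlap include ANXA1. Calls depended on the control libraries more than on the AE libraries. With 1 AE library left out, 6 to 8 annexins and 2585 to 4267 genes were called. The model shares its estimate of spread over the 3 groups, whose own spread was 7.57% in controls and 31.5% in AE knockdown. With a spread for each group in limma-voom, 7 annexins and 3207 genes were called. The part of the unequal spread in the calls lost without 1 control was not tested. Without control 1 or 3 only ANXA5 was called (adjusted p = 0.0466 and 0.0381), and without control 2 none was (ANXA5 0.0521). In those 3 fits the fold changes kept their direction in all 9 members, while the count over all genes was 1096, 1050 and 954, against 3214 with all libraries.

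**Figure D1:**
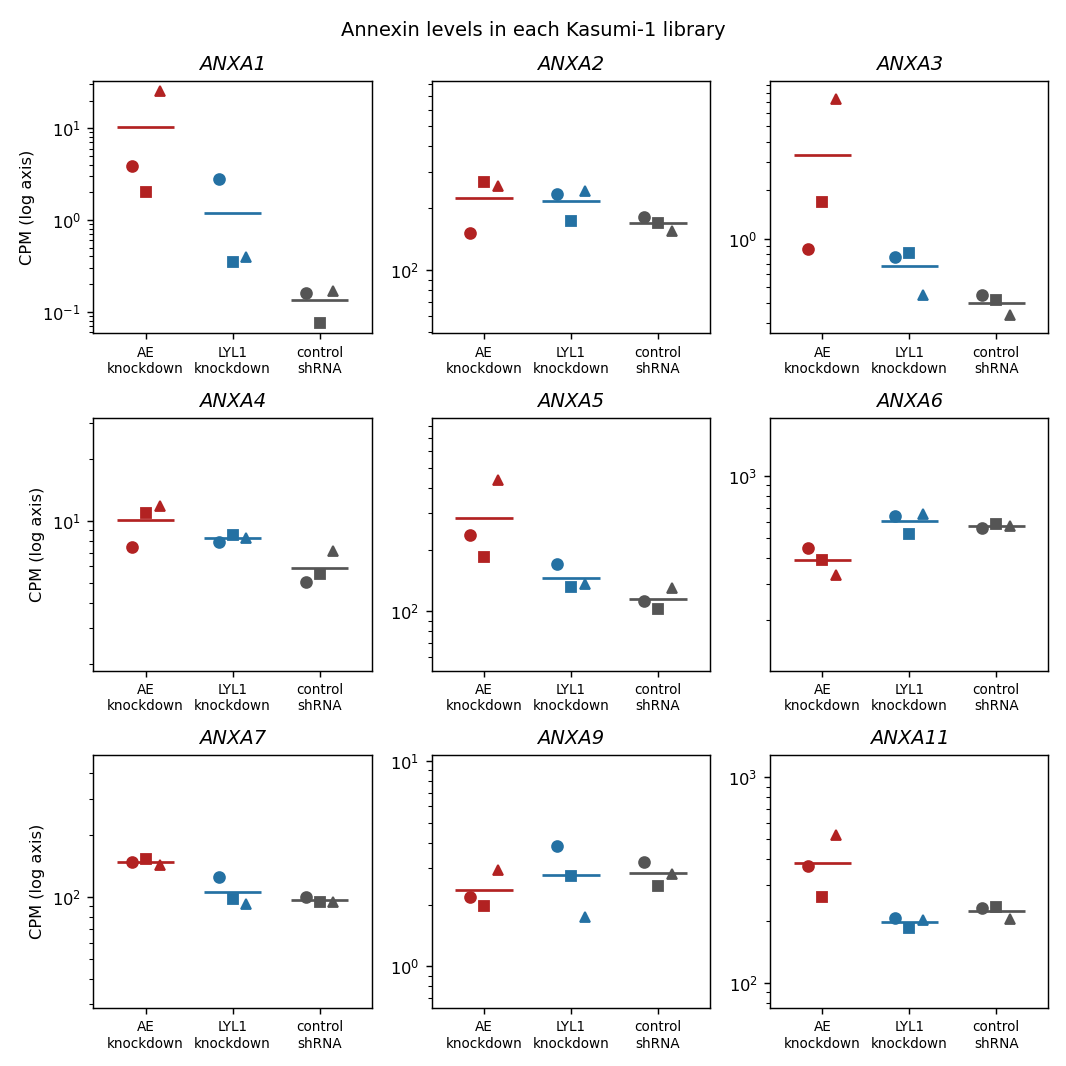
Level of each annexin in every library, in CPM on a log axis that differs between panels. Circles, squares and triangles are AE replicates 1, 2 and 3, LYL1 shRNAs 538, 540 and 542 and controls 1, 2 and 3, and a bar is the group mean of 3 libraries. All AE libraries lie above all controls for ANXA1, ANXA3, ANXA4, ANXA5, ANXA7 and ANXA11, and below them for ANXA6.

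ANXA1, the glucocorticoid-induced annexin of maturing myeloid cells, showed the largest fold change of the 9 against control in either knockdown. Its counts were 108, 57 and 522 in AE knockdown replicates 1, 2 and 3 (3.86, 2.01 and 25.1 CPM), 73, 9 and 8 in LYL1 knockdown libraries 538, 540 and 542 (2.80, 0.348 and 0.399 CPM), and 4, 2 and 4 in controls 1, 2 and 3 (0.162, 0.0754 and 0.168 CPM). Every AE and every LYL1 library lay above every control, and within the AE group replicate 3 was far above the other 2. LYL1 library 538 lay between AE replicates 2 and 1, apart from 540 and 542. Against control the log2 fold change was 6.19 (SE 1.34, 95% interval 3.24 to 9.15, adjusted p = 0.0119) under AE knockdown. Summed over the groups, 687 counts in AE and 10 in control libraries give a ratio of rates of 65.9 (exact interval 35.6 to 138, which covers counting error only). Leaving out AE replicate 3 lowered the log2 fold change to 4.40 (adjusted p = 0.0134). Its call was lost without control 1, 2 or 3 (adjusted p = 0.056, 0.0645 and 0.0527) and when no low-count filter was used (0.0731).

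The LYL1 knockdown value for ANXA1 rested on 1 library. Against control the log2 difference was 3.15 (SE 1.68, interval -0.57 to 6.87, adjusted p = 1), and it was 1.44 without library 538. The sums of 90 and 10 counts in LYL1 and control libraries give a ratio of 9.51 (exact interval 4.94 to 20.5, counting error only). Between the knockdowns ANXA1 was higher under AE knockdown by 3.04 on the log2 scale (SE 0.95, adjusted p = 0.0462), although the libraries overlap. That call was lost without AE replicate 3 (1.24, adjusted p = 0.206), without 540 or 542 (0.127 and 0.139) and without any 1 control (0.0691 to 0.0793), and without 538 the difference was 4.74 (0.0367).

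Genes around ANXA1 did not all move with it. FPR2, the receptor through which ANXA1 acts, had 3.86, 6.55 and 1.59 CPM in AE knockdown, 12.4, 11.8 and 22.8 CPM in LYL1 knockdown and 15.6, 14.4 and 17.6 CPM in control libraries. All AE libraries lay below all others. FPR2 fell by 1.96 on the log2 scale against control (SE 0.41, adjusted p = 0.0104) and was called with any 1 library left out. FPR1 had at most 0.168 CPM in any library, and FPR3 at most 0.0387 CPM. PRTN3 and ELANE, neutrophil proteases that cut the ANXA1 tail, were not called under AE knockdown (log2 0.01 and -0.34, adjusted p = 0.987 and 0.671), and the sign for PRTN3 turned under other scalings. Of this list of 5 genes, 3 were tested. Under AE knockdown 0 rose and 1 fell, where 21.8% of all genes were called and 10.4% fell, and under LYL1 knockdown 0 were called, where 0.0136% of all genes were.

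Some markers of maturing myeloid cells rose with ANXA1 under AE knockdown. The 6 granulocyte markers summed to 567, 496 and 4107 CPM in AE replicates 1, 2 and 3, 61.3 to 111 CPM in LYL1 knockdown and 78.8 to 88.2 CPM in control libraries. BPI and CEBPE carried this sum, while LTF, LCN2 and MMP8 stood at 0 in all AE libraries. The 6 monocyte and macrophage markers summed to 49.7, 25.1 and 259 CPM in AE knockdown, 13.1 to 19.97 CPM in LYL1 knockdown and 9.01 to 10.0 CPM in control libraries. CSF1R, TYROBP and LYZ carried this sum. CD14 averaged 0.0397 CPM in AE knockdown and 0.0643 CPM in control libraries, CD68 was at 0 in all AE libraries and averaged 0.0270 CPM in controls, and FCGR3A was at 0 in every library. Both sums were highest in AE replicate 3, as ANXA1 was. In LYL1 libraries 538, 540 and 542 the granulocyte sums were 101, 61.3 and 111 CPM and the monocyte sums 13.1, 19.97 and 19.2 CPM. Neither was highest in library 538, the LYL1 library with the most ANXA1. The part of these sums in the result was not tested. In bulk libraries, more cells of a type and more RNA per cell cannot be told apart. Lists of other cell types were low. The B cell list summed to 16.8 CPM in AE replicate 3 and to 2.49 to 6.03 CPM in all other libraries. The T cell list summed to 0.715 to 1.20 CPM in AE knockdown, 2.13 to 5.34 CPM in LYL1 knockdown and 4.07 to 5.95 CPM in control libraries, with 1 gene called lower under AE knockdown, CD3D. The part of either in the results was not tested. Erythroid, megakaryocyte, epithelial and fibroblast lists each summed to at most 3.22 CPM in any library.

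ANXA3, another annexin of granulocytes, rose under AE knockdown and, like ANXA1, was highest in replicate 3 and very low in controls. It had 0.858, 1.69 and 7.31 CPM in AE replicates 1, 2 and 3 (24, 48 and 152 counts), 0.768, 0.813 and 0.449 CPM in LYL1 knockdown (20, 21 and 9 counts) and 0.445, 0.415 and 0.336 CPM in control libraries (11, 11 and 8 counts). Replicate 3 was the highest of all, and every AE library lay above every control. The log2 fold change was 2.96 under AE knockdown (SE 0.79, adjusted p = 0.0261), and 1.65 (0.0258) without AE replicate 3. It was not called without any 1 control (adjusted p = 0.0807 to 0.0882) or with no low-count filter (0.108). Under LYL1 knockdown it was 0.78 (SE 0.98, adjusted p = 1), with all 3 libraries just above the controls. Between the knockdowns the difference of 2.18 had an adjusted p of 0.0587, and it was 0.87 (0.151) without AE replicate 3. The granulocyte marker sum given above was highest in the same library, and its part in the result was not tested.

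ANXA5, the phosphatidylserine-binding annexin, rose under AE knockdown. It had 237, 184 and 435 CPM in AE knockdown, 171, 132 and 136 CPM in LYL1 knockdown, and 112, 103 and 130 CPM in control libraries. Every AE library lay above every LYL1 library, and every LYL1 library above every control. Group means were 285 ± 132, 146 ± 21.2 and 115 ± 13.8 CPM in AE knockdown, LYL1 knockdown and control (SD, n = 3 each). The log2 fold change was 1.31 under AE knockdown (SE 0.27, adjusted p = 0.00989), 0.86 without AE replicate 3. Under LYL1 knockdown it was 0.34 (SE 0.27, interval -0.25 to 0.94, adjusted p = 1). The difference between the knockdowns was 0.96 (SE 0.27, adjusted p = 0.03), which was not called without control 1 (0.0504) or without LYL1 library 538, 540 or 542 (0.0519, 0.0906 and 0.0995).

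Lipid transporters set how much phosphatidylserine faces outward, which ANXA5 protein reads on dying cells. ATP11A, a flippase that moves phosphatidylserine inward, had 64.2, 58.0 and 55.7 CPM in AE knockdown, against 86.2, 85.9 and 84.4 CPM in control libraries. It fell by 0.53 on the log2 scale (SE 0.14, adjusted p = 0.0253). Its call was lost without any 1 control (0.0763 to 0.0873). ANO6, a calcium-activated scramblase, had a log2 difference of -0.70 with an adjusted p of 0.0554.

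ANXA4, an annexin of secretory epithelia that binds membranes in lattices, was present at a low level. Its values were 7.47, 10.96 and 11.7 CPM in AE knockdown, 7.87, 8.55 and 8.23 CPM in LYL1 knockdown and 5.02, 5.50 and 7.14 CPM in control libraries. All knockdown libraries lay above all controls, with AE replicate 1 close to control 3. The log2 fold change under AE knockdown was 0.77 (SE 0.22, adjusted p = 0.03). It was not called without AE replicate 2 or 3 (0.0539 and 0.0709) or without control 1, 2 or 3 (0.123, 0.116 and 0.0518). Under LYL1 knockdown it was 0.48 (SE 0.22, interval 0.00 to 0.97, adjusted p = 1), and the difference of 0.29 between the knockdowns was not called (0.359). In GENCODE v29 ANXA4 lies over 2 genes of the opposite strand whose exons do not overlap its own.

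ANXA2, the plasminogen-binding annexin, did not pass the test. It had 152, 270 and 255 CPM in AE knockdown, 233, 173 and 241 CPM in LYL1 knockdown and 182, 170 and 154 CPM in control libraries. AE replicate 1 was the lowest of all 9 libraries, and both knockdown groups overlapped the controls. The log2 difference was 0.42 under AE knockdown (SE 0.21, interval -0.05 to 0.89, adjusted p = 0.178) and 0.35 under LYL1 knockdown (SE 0.21, interval -0.12 to 0.82, adjusted p = 1). Without AE replicate 1 the AE value was 0.63 and was called (adjusted p = 0.0296). Between the knockdowns it was 0.06 (interval -0.40 to 0.53, adjusted p = 0.857). The processed pseudogenes of ANXA2 held 0.592% to 1.09% as many counts as the gene, and adding them left the AE value at 0.42 (adjusted p = 0.177).

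S100A10, the light chain of the ANXA2 complex, was close to undetected. It had 2, 13 and 9 counts summed over the AE knockdown, LYL1 knockdown and control libraries and was not tested. S100A11, the partner of ANXA1, had 211, 231 and 333 CPM in AE knockdown and 227, 228 and 224 CPM in control libraries (log2 0.19, adjusted p = 0.591), and its sign turned without AE replicate 3. S100A6 and S100A4, calcium-binding proteins reported to bind ANXA2 and other annexins, rose under AE knockdown. S100A6 had 3.43, 1.97 and 6.88 CPM in AE knockdown, against 0.729, 0.716 and 0.588 CPM in control libraries (log2 2.55, SE 0.60, adjusted p = 0.0156). Its call was lost without any 1 control (0.0602 to 0.0654). S100A4 had 262, 190 and 103 CPM in AE knockdown, against 73.0, 68.9 and 76.6 CPM in control libraries (log2 1.34, SE 0.27, adjusted p = 0.0085). It was called with any 1 library left out, and here replicate 3 was the lowest of the AE libraries. Of the 3 tested S100 genes 2 rose under AE knockdown (11.4% of all genes rose), and 0 were called under LYL1 knockdown (0.0136% of all genes).

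Of the plasminogen system around ANXA2 and S100A10, 5 of 8 genes were tested. Under AE knockdown 2 rose and 0 fell, where 21.8% of all genes were called and 11.4% rose, and under LYL1 knockdown 0 were called, where 0.0136% of all genes were. PLGRKT, a membrane receptor of plasminogen, had 6.29, 5.64 and 5.34 CPM in AE knockdown, 3.38, 3.75 and 2.59 CPM in LYL1 knockdown and 2.35, 2.30 and 2.65 CPM in control libraries. AE libraries were close to each other and above all others, with a log2 fold change of 1.25 against control (SE 0.21, adjusted p = 0.00525) that was called with any 1 library left out. PLAUR, the urokinase receptor, rose by 0.76 (SE 0.21, adjusted p = 0.0261), and lost its call without any 1 control (0.0632 to 0.111) or AE replicate 3 (0.0507). PLAT, tissue plasminogen activator, had a log2 difference of -1.38 (adjusted p = 0.0661). PLG, the gene of plasminogen itself, stood at 0 in every library.

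**Figure D2:**
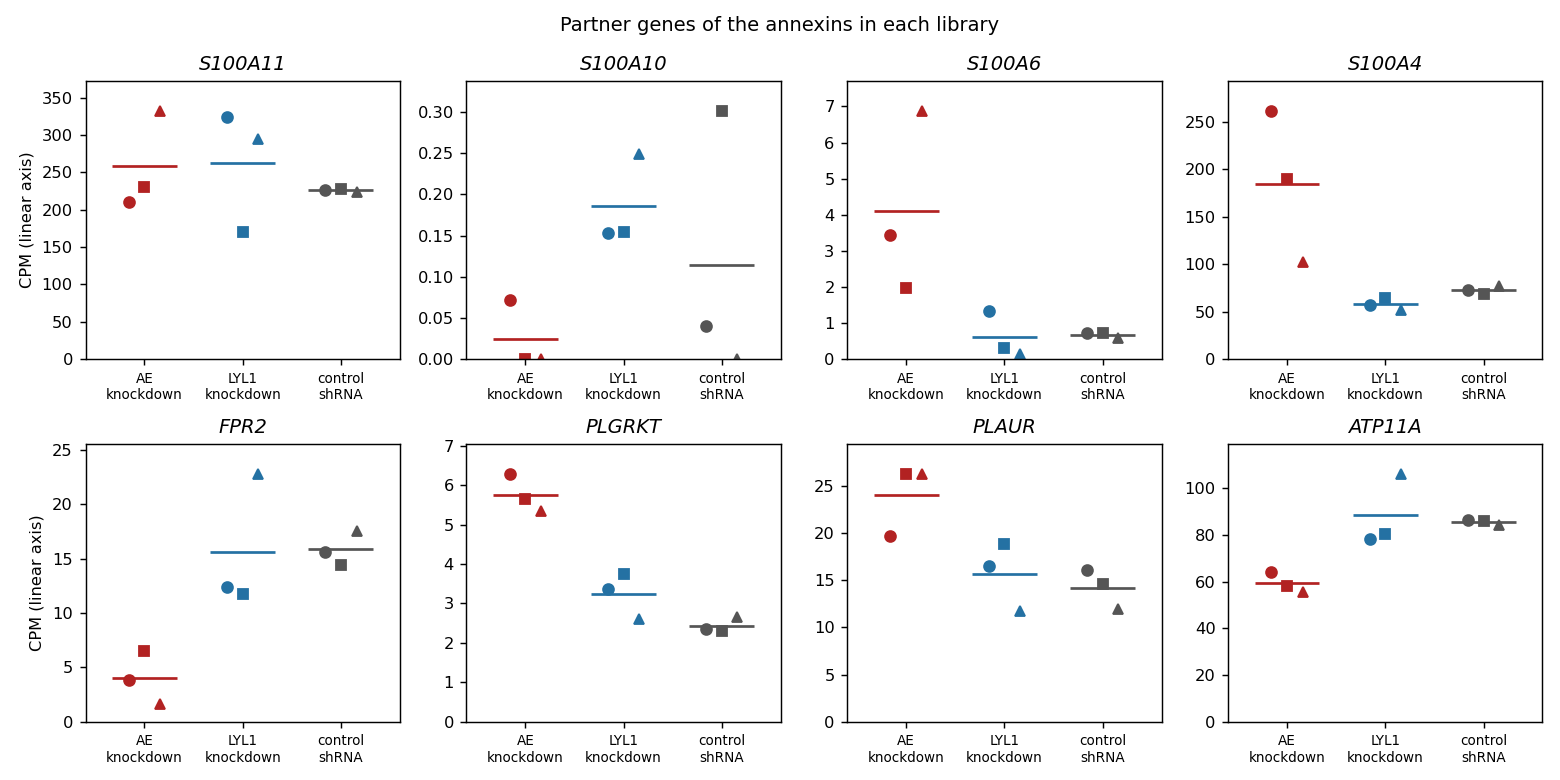
Level of 8 partner genes in every library, in CPM on linear axes that start at 0. Circles, squares and triangles are AE replicates 1, 2 and 3, LYL1 shRNAs 538, 540 and 542 and controls 1, 2 and 3, and bars are means of 3 libraries. FPR2 and ATP11A are lower, and S100A6, S100A4, PLGRKT and PLAUR higher, in all 3 AE libraries than in all controls, while S100A11 overlaps and S100A10 stays below 0.4 CPM.

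ANXA6, whose core is the family's doubled one and which binds membranes of the endocytic route, was the member that fell. It had 447, 392 and 332 CPM in AE knockdown, 637, 523 and 652 CPM in LYL1 knockdown and 558, 582 and 572 CPM in control libraries. All AE libraries lay below all others, while LYL1 libraries lay on both sides of the controls. ANXA6 fell by 0.55 on the log2 scale under AE knockdown (SE 0.15, adjusted p = 0.028), and by 0.46 without AE replicate 3. The call was lost without control 1, 2 or 3 (0.083, 0.1 and 0.086). Under LYL1 knockdown the log2 difference was 0.08 (SE 0.15, interval -0.25 to 0.42, adjusted p = 1). Between the knockdowns it was -0.63 (SE 0.15, adjusted p = 0.0177), lost without LYL1 library 538 or 542 (0.0532 and 0.0571).

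ANXA7 and ANXA11 have long N-terminal tails and bind calcium-sensing proteins of the penta-EF-hand family, sorcin (SRI) and ALG-2 (PDCD6). ANXA11 also tethers RNA granules to lysosomes. ANXA7 had 148, 153 and 144 CPM in AE knockdown, 125, 97.9 and 92.5 CPM in LYL1 knockdown and 100, 95.01 and 94.2 CPM in control libraries. The AE libraries were close to one another and above all others, and LYL1 library 538 stood above the other LYL1 libraries. The log2 fold change under AE knockdown was 0.62 (SE 0.14, adjusted p = 0.0122), and with 1 library left out it ran from 0.60 to 0.64. Its call was lost without control 1, 2 or 3 (0.0511, 0.0637 and 0.0584). Under LYL1 knockdown the difference was 0.13 (SE 0.14, adjusted p = 1), and -0.02 without 538. Between the knockdowns it was 0.50 (SE 0.14, adjusted p = 0.0285). That call was lost without any 1 control (0.0516 to 0.0579), AE replicate 1 (0.0534) and LYL1 library 540 or 542 (0.089 and 0.102). In GENCODE v29 exons of an antisense gene overlap those of ANXA7, and the strand setting of the counting is not given in the sources used here, so its counts may hold reads of both.

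ANXA11 had 370, 261 and 521 CPM in AE knockdown, 206, 185 and 202 CPM in LYL1 knockdown and 230, 234 and 205 CPM in control libraries. All AE libraries lay above all others, replicate 3 the highest and replicate 2 the nearest to the controls. Group means were 384 ± 131, 198 ± 11.1 and 223 ± 15.6 CPM in AE knockdown, LYL1 knockdown and control (SD, n = 3 each). The log2 fold change under AE knockdown was 0.78 (SE 0.21, adjusted p = 0.0246) and 0.49 without AE replicate 3. It was not called without control 1, 2 or 3 (0.0782, 0.0766 and 0.0975). Under LYL1 knockdown the difference was -0.17 (SE 0.21, interval -0.64 to 0.29, adjusted p = 1). Between the knockdowns ANXA11 was higher under AE knockdown by 0.96 (SE 0.21, adjusted p = 0.0124), the only call of the 5 between the knockdowns that held with each library left out in turn (0.00167 to 0.0442).

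Among 11 partners of annexins in calcium-dependent membrane repair, 10 were tested, 2 rose and 0 fell under AE knockdown (near the 21.8% called over all genes), and 0 were called under LYL1 knockdown (0.0136% over all genes). PDCD6 had 12.1, 15.0 and 14.4 CPM in AE knockdown, against 8.42, 8.33 and 8.78 CPM in control libraries. It rose by 0.70 (SE 0.18, adjusted p = 0.023), a call lost without any 1 control (0.0754 to 0.0936). AHNAK, a giant scaffold bound by ANXA2 and S100A10, had 5.65, 1.16 and 2.36 CPM in AE knockdown and 0.850, 0.528 and 0.714 CPM in control libraries. Its log2 fold change was 2.14 (SE 0.68, adjusted p = 0.0458). It was 1.29 (0.162) without AE replicate 1, and the call was also lost without AE replicate 3 (0.0624), LYL1 library 538 (0.0597) or any 1 control (0.11 to 0.149). Sorcin, named after its values were seen, had a log2 difference of 0.32 (adjusted p = 0.0812). CAPN2, a calpain subunit, had a difference of -0.78 (adjusted p = 0.0691). Of the copines, which also bind phospholipid with calcium, 4 of 6 were tested, with 1 rise and 1 fall under AE knockdown beside 21.8% of all genes called. CPNE1 rose by 0.58 (adjusted p = 0.0276) and CPNE7 fell by 0.93 (adjusted p = 0.0439) under AE knockdown. Without any 1 control neither was called (0.056 to 0.117), CPNE1 also not without AE replicate 3 (0.0624), and CPNE7 not without AE replicate 1 (0.0808) or LYL1 library 538 or 540 (0.0595 and 0.0582).

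ANXA9, an atypical annexin whose core has lost calcium-binding residues, was low in every group. It had 2.18, 1.97 and 2.93 CPM in AE knockdown, 3.84, 2.75 and 1.75 CPM in LYL1 knockdown and 3.24, 2.45 and 2.81 CPM in control libraries. The 3 groups overlapped. The log2 difference was -0.27 under AE knockdown (interval -0.94 to 0.39, adjusted p = 0.535) and -0.01 under LYL1 knockdown (interval -0.66 to 0.65, adjusted p = 1), where its sign turned under other scalings. Other annexin genes were at or near 0. ANXA8 and ANXA13 had no count in any library, ANXA10 had 1 count in all, and ANXA8L1 had 1, 13 and 22 counts summed over the AE knockdown, LYL1 knockdown and control libraries. ANXA8L1 and ANXA8L2 are near copies of ANXA8, so their split is uncertain. ANXA2R, named as a receptor of ANXA2, had 7.12, 2.22 and 8.61 CPM in AE knockdown and 3.89, 3.62 and 3.40 CPM in control libraries (log2 0.70, adjusted p = 0.261), and without AE replicate 2 it was called (1.11, adjusted p = 0.0216).

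**Figure D3:**
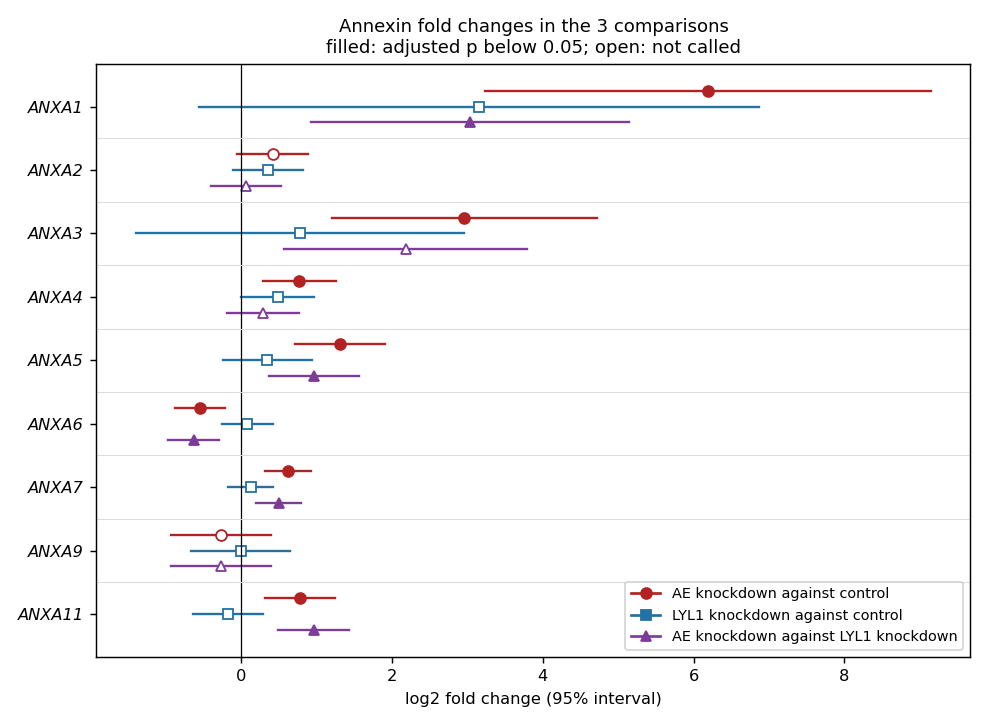
Log2 fold change of each annexin with its 95% interval from edgeR, for AE knockdown against control (red circles), LYL1 knockdown against control (blue squares) and AE against LYL1 knockdown (purple triangles). Filled points have an adjusted p below 0.05, and every LYL1 point is open. The intervals of ANXA1 are the widest and those of ANXA7 and ANXA6 the narrowest.

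Under LYL1 knockdown no annexin passed the test. By edgeR 0 of 9 were called, with 0 at an unadjusted p below 0.05, beside 2 of all genes (0.0136%) called and 711 at an unadjusted p below 0.05. DESeq2 and limma-voom also called 0 of 9, each with 2 at an unadjusted p below 0.05. The 3 LYL1 libraries lay above all controls in 4 members, ANXA1, ANXA3, ANXA4 and ANXA5, where 16.6% of all genes tested did not overlap and 8.41% of all genes tested lay higher without overlap. ANXA1 passed the low-count filter in 3 AE, 2 LYL1 and 0 control libraries, so it was tested only through knockdown libraries. Without it ANXA3, ANXA4 and ANXA5 remain. The median log2 difference of the 9, with ANXA1 included, was 0.34, beside 0.01 over all genes. Intervals reached 0.42 for ANXA6 and 0.43 for ANXA7 at their upper end, and 6.87 for ANXA1, so rises up to such bounds were not excluded. In the partner lists the smallest adjusted p was that of MYOF, a ferlin of membrane repair, at 0.97 (log2 1.60). The same 3 control libraries serve both knockdowns, so the values against control are not independent.

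Between the knockdowns 5 of 9 annexins were called, where 20.4% of all genes were (10.7% higher and 9.7% lower). ANXA1 passed the low-count filter in 3 AE, 2 LYL1 and 0 control libraries, so it was tested only because of its level under AE knockdown, and without it 4 of 8 were called. ANXA1, ANXA5, ANXA7 and ANXA11 were higher and ANXA6 lower under AE than under LYL1 knockdown, with the values given above. The AE and LYL1 libraries did not overlap in 5 members, ANXA3, ANXA5, ANXA6, ANXA7 and ANXA11, as in 35.5% of all genes (18.2% higher and 17.2% lower). When only the 6 libraries of both knockdowns were fitted, none of the 5 was called, with ANXA11 nearest at an adjusted p of 0.0516.

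**Figure D4:**
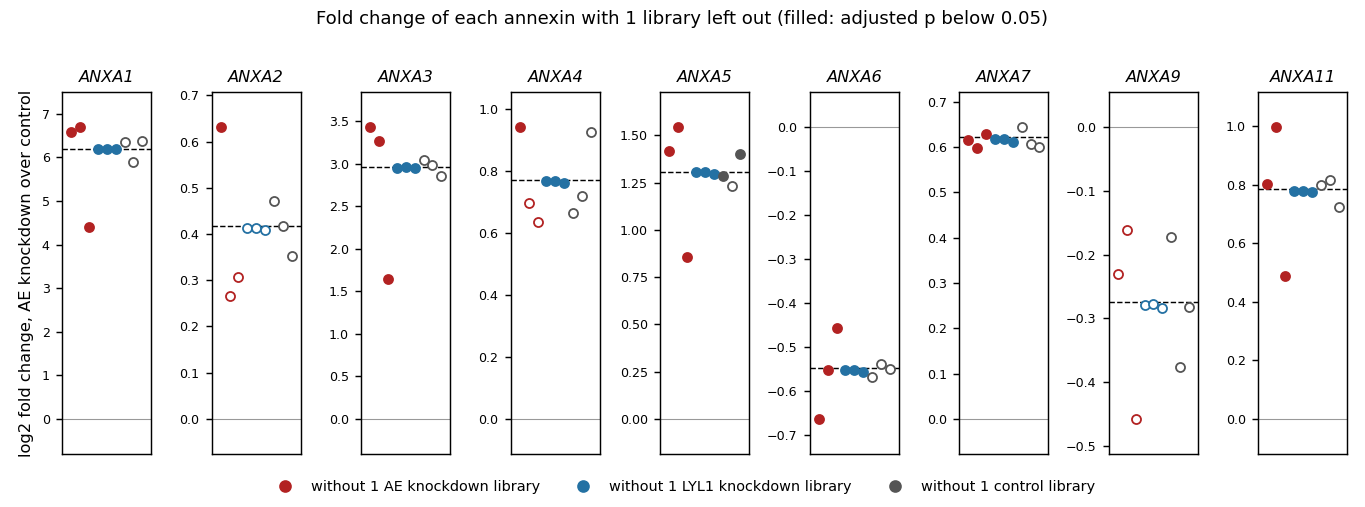
Log2 fold change of each annexin for AE knockdown against control with 1 library left out, by the group of that library. The vertical axes are linear and differ between panels, the dashed line is the value with all 9 libraries and filled points have an adjusted p below 0.05. Without AE replicate 3, the last red point, ANXA1 falls to 4.40, ANXA3 to 1.65, ANXA5 to 0.86 and ANXA11 to 0.49, while ANXA7 stays at 0.63, and most grey points, without 1 control, are open.

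The make-up of the family differed between groups. Its 9 genes took 0.136%, 0.133% and 0.158% of all counts in AE knockdown, 0.143%, 0.114% and 0.133% in LYL1 knockdown and 0.119%, 0.120% and 0.116% in control libraries. ANXA6 held 19.1% to 32.7% of annexin counts in AE knockdown, 45.9% to 48.9% in LYL1 knockdown and 46.9% to 49.0% in control libraries. ANXA5 held 14.4% to 25.1% in AE knockdown, 10.2% to 12.3% in LYL1 knockdown and 8.65% to 11.2% in control libraries. The share of ANXA11 was 20.5% to 30.1% in AE knockdown, 14.9% to 16.5% in LYL1 knockdown and 17.6% to 19.6% in control libraries. These shares sum to the whole in each library, so a larger share of one gene lowers the others.

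**Figure D5:**
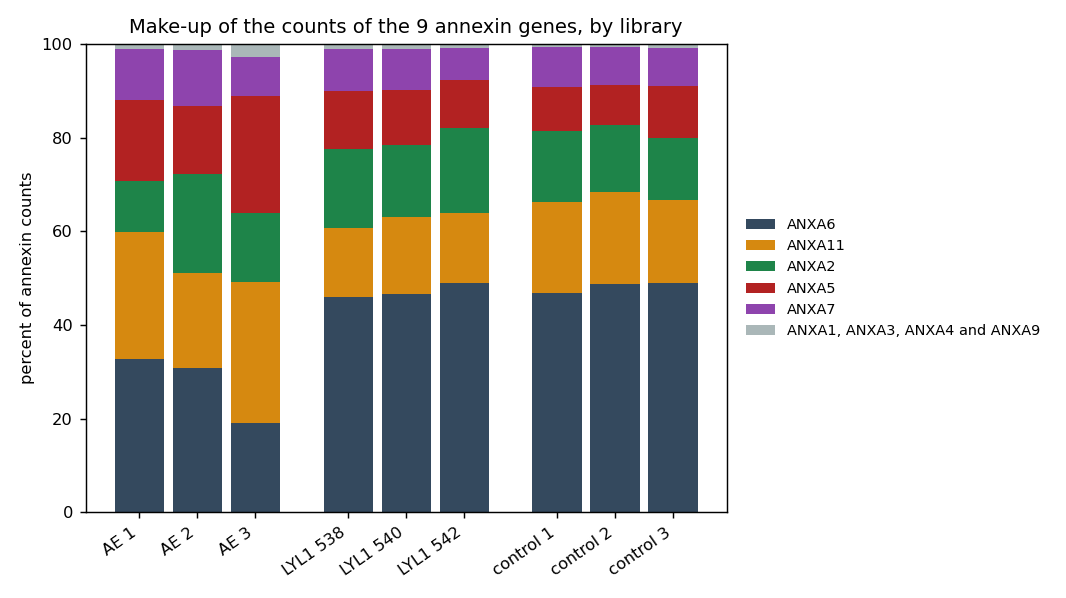
Share of each annexin in the summed counts of the 9 annexin genes, in percent, for every library. ANXA6 holds 19.1% to 32.7% in the AE knockdown libraries and 45.9% to 49.0% in all others, and ANXA11 and ANXA5 hold larger shares under AE knockdown.

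Levels were compared between members per kb of transcript, over the shortest and longest coding transcripts of GENCODE v29. In control libraries the order ran from ANXA6 (220 to 233 CPM per kb) and ANXA2 (101 to 118) through ANXA5 (65.3), ANXA11 (32.0 to 88.3) and ANXA7 (39.3) to ANXA4 (2.10 to 4.16), ANXA9 (1.55), ANXA3 (0.241) and ANXA1 (0.0612 to 0.0895). The place of ANXA11 beside ANXA5 and ANXA7 depends on which transcript is counted. In AE knockdown ANXA5 (162), ANXA6 (151 to 159) and ANXA2 (135 to 157) stood close together, within the spread of their libraries. ANXA11 (55.2 to 152) stood near them or near ANXA7 (60.5), depending on which transcript is counted. ANXA1 (4.68 to 6.84) and ANXA4 (3.59 to 7.11) then overlapped. In LYL1 knockdown ANXA6 (233 to 247) and ANXA2 (129 to 150) stood first, and ANXA1 (0.536 to 0.784) and ANXA3 (0.408) last, with libraries that overlap.

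The genes most like each annexin were found by the root mean square difference of log2 CPM, centred on the mean of the 9 libraries, among 10069 genes. For ANXA5 they were CYB5R4 (0.127) and IFNGR1 (0.150), for ANXA6 PPP6R3 (0.0573) and BPTF (0.0664), and for ANXA7 HEBP2 (0.0643) and CIAO3 (0.0829). For ANXA11 they were HSD17B11 (0.100) and ZNF808 (0.102), for ANXA2 GFOD1 (0.128) and AC026748.3 (0.129), and for ANXA4 NDUFB1 (0.135) and ATG14 (0.146). For ANXA3 they were SLC16A3 (0.427) and HVCN1 (0.434), and for ANXA9 ZNF358 (0.153) and CAPN1 (0.159), a calpain of the repair list. For ANXA1 they were PRAM1 (1.06) and LINC01215 (1.06), the largest differences of the 9 members. ANXA1 also varied most, with an SD of 2.29 over the 9 libraries. Beside their SDs, ANXA9 (0.327) and ANXA2 (0.307) had matches about as loose as that of ANXA1.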

How the data were processed

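RNA sequencing of 9 Kasumi-1 libraries was analysed from the deposited counts, whole raw read counts per gene symbol with no normalisation by the authors. The submitters' processing notes name the build hg19 and the tools DESeq2 1.26.0, featureCounts 2.0.1, fastp 0.20.1, SAMtools 1.7 and HISAT2 2.2.0, with no role given. The annotation, strand setting and treatment of multiply mapped reads are not given in the sources used here. In 6 files 5 gene names had a decimal suffix, which was removed.

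Counts were scaled by TMM. Genes were kept by filterByExpr (14741 of 59648), which needed about 0.394 CPM in 3 libraries. All 9 libraries entered 1 group-means model (R 4.3.3, limma 3.58.1, edgeR 4.0.16) with robust quasi-likelihood tests and Benjamini-Hochberg adjustment over all genes tested. Calls need an adjusted p below 0.05, and fold changes use a prior count of 0.125. The contrast of both knockdowns tests their difference. The model was tested on simulated data. The simulation gave each gene 1 spread for all 3 groups, so it could not check calls under their unequal spread. Members, partner lists, markers and the naming rule were chosen with earlier results of these data known. The rule names all members, all genes of the annexin, S100 and ANXA1 lists, up to 3 genes with the smallest adjusted p of each other list, and 2 genes most like each member. Markers named within a list were chosen after their values were seen. Alternatives were other scalings, low-count filters, DESeq2 1.42.0, limma-voom with a spread per group, only 6 libraries, a replicate block and each library left out. Transcript lengths and overlapping genes come from GENCODE v29 (GRCh38), promoters from RefSeq. No replicate pair of a group agreed within counting noise. Some results of the partner lists and promoter windows are not reported here.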

Additional observations from a re-analysis of the deposited data

Results flagged for a closer look

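In 5 annexins the effects of the 2 knockdowns differed by a test of the difference itself, the AE against LYL1 contrast of the edgeR model. In that contrast 20.4% of all genes tested were called. ANXA1 differed by 3.04 on the log2 scale (AE minus LYL1 knockdown, adjusted p = 0.0462). Its AE and LYL1 libraries overlapped, and it passed the low-count filter in 0 control libraries. ANXA5 differed by 0.96 (adjusted p = 0.03). ANXA11 differed by 0.96 (adjusted p = 0.0124). ANXA6 differed by -0.63 (adjusted p = 0.0177). ANXA7 differed by 0.50 (adjusted p = 0.0285). These calls depended on the fit. With only the 6 knockdown libraries 0 annexins were called, with limma-voom 3, and with 1 library left out 1 to 6.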

How the results depend on the processing

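Under AE knockdown against control, 7 annexins and 3214 genes were called. Other scalings, DESeq2 and limma-voom also called 7 annexins (3018 to 3927 genes), the strict filter 6 and the fits without a filter or with only 6 libraries 5. With 1 library left out, 0 to 8 annexins and 954 to 4267 genes were called. AE and control replicates share numbers, but same-numbered libraries did not deviate together (correlations of 0.0416, -0.0135 and 0.00685, with 2 of 3 AE libraries closest to the control of their number). A replicate block called 4 annexins and 1629 genes, without ANXA4, ANXA6 and ANXA11. No paired analysis was possible for LYL1 knockdown because its numbers match no other group. Against control it had 2 calls over all genes, 5 by library size only, 8 with no filter, 1 with the strict filter, 33 with DESeq2, 25 with limma-voom, 15 with only 6 libraries and 1 to 11 with 1 library left out, with 0 annexins each time. Between the knockdowns 5 annexins and 3003 genes were called. No filter called 3 annexins, limma-voom 3 (1685 genes), only 6 libraries 0 (941 genes), and leaving out 1 library 1 to 6 (1467 to 4007 genes).

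Values that changed sign were small. For PRTN3 under AE knockdown the log2 value was 0.01, and -0.014 with median-of-ratios scaling and DESeq2, -0.017 by library size only and with no filter, -0.11 with limma-voom, -0.0024 with only 6 libraries, -0.12 with the replicate block and -0.49 to 0.29 with 1 library left out. Likewise S100A11 ran from -0.048 to 0.31 and ANXA2P1 from -0.0059 to 0.58. Under LYL1 knockdown ANXA9 was 0.0083 with upper-quartile scaling and 0.012 by library size only, and ran from -0.32 to 0.22 with 1 library left out. ANXA7 ran from -0.018 to 0.21 and RUNX1 from -0.030 to 0.28. RUNX1T1 was 0.0079 with upper-quartile scaling and 0.0058 by library size only, and ran from -0.17 to 0.093. Between the knockdowns ANXA2 ran from -0.087 to 0.27 and ANXA9 from -0.51 to 0.036. The causes were not tested. The counts of 2 to 522 for ANXA1 and 8 to 152 for ANXA3 in a library limit the precision of both.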

Other observations

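S100A4 and ANXA1 ranked the AE knockdown libraries in unlike ways. In replicates 1, 2 and 3, S100A4 had 262, 190 and 103 CPM and ANXA1 had 3.86, 2.01 and 25.1 CPM, while RUNX1T1 stood at 52.6%, 63.0% and 40.5% of the control mean. S100A4 was thus lowest, and ANXA1 highest, in replicate 3, the library with the least RUNX1T1. Of replicates 1 and 2, both genes were higher in replicate 1, which had less RUNX1T1 than replicate 2. Replicate 3 also had the most mitochondrial rRNA (1.21% of counts) and lay farthest out on the first principal component (102). In 3 libraries these traits cannot be told apart, and no relation to RUNX1T1 was tested.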
